A study of Mus musculus with 4 samples.

Results

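Integrins are cell surface receptors made of 1 alpha chain and 1 beta chain that join cells to the extracellular matrix or to other cells. The genes described here are the 31 protein-coding genes of the deposited count table whose symbol begins with Itga or Itgb, out of 55487 genes in the table and 21936 that are protein coding. They hold 27 integrin chains, 18 alpha and 9 beta. The other 4 share the letters only: Itgb1bp1 and Itgb1bp2 encode intracellular proteins that bind the tail of the beta chain Itgb1, Itgb3bp encodes a protein that was named for binding Itgb3 and belongs to the centromere, and Itgbl1 encodes a secreted protein related to beta chains. RNA was sequenced from wild-type mouse embryonic fibroblasts (MEFs), which are primary cells from whole C57BL/6J embryos and not a clone, given as passage 2 by the labels, while the study's text names a later passage, so that the passage is in doubt. They were kept for 24 h with recombinant PEDF, a secreted serpin, here purified from mammalian cells, at 100 ng/mL, or without it. Each of 2 experiments used its own embryos and gave 1 control and 1 PEDF library, so that each group held 2 libraries. The libraries held 14722848 to 18144640 counts.

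The pairing of alpha with beta decides which ligand an integrin binds. Chains such as Itga5 and Itgav read the short RGD motif of fibronectin, vitronectin and the latent form of TGF-beta, Itga1, Itga2, Itga10 and Itga11 bind collagens, and Itga3, Itga6 and Itga7 bind laminins. Inside the cell, talins and kindlins switch integrins on and, with vinculin, filamins and alpha-actinins, tie them to actin at focal adhesions, where the kinase FAK and the adaptor paxillin pass the signal on. Fibroblasts are known for fibronectin and collagen receptors, and leukocytes for the chains that pair with Itgb2. The question was which chains MEFs express and how each differed between PEDF and control within each experiment.

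Levels of different genes were compared as TPM, transcript shares that account for gene length and sum to 1000000 in each library. A chain was counted as detected where it reached 1 TPM in every library, which held for 20 of the 27 chains, 14 alpha and 6 beta. Itgb1, the beta chain shared by most matrix receptors, led with 1157 TPM in control 1, 1277 in control 2, 1039 in PEDF 1 and 1211 in PEDF 2. Next stood Itga5, the fibronectin receptor chain, at 224 to 331 TPM, and Itgb5, a partner of Itgav, at 242 to 277 TPM, and the ranges of this pair overlapped. Itgav itself was at 77.0 to 114 TPM and Itga11, the collagen receptor chain of fibroblasts, at 62.4 to 97.9 TPM, and their ranges overlapped too. All 4 libraries put Itgb1 above both Itga5 and Itgb5, and those above Itgav.

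A middle tier held the laminin receptor chains Itga3, at 29.0 to 37.2 TPM, and Itga6, at 23.4 to 30.8 TPM. Itga9, which binds tenascin and osteopontin among others, was at 16.7 to 18.9 TPM. Itgb3, the beta chain of the classical vitronectin receptor, was at 12.6 to 18.9 TPM, overlapping Itga9. Itga8, which binds nephronectin, followed at 9.80 to 11.2 TPM, apart from Itgb3 above it and Itga7 below it. Itga7, Itga1, Itgb2, Itga4, Itga10 and Itga2b lay between 2.90 and 6.24 TPM, each range overlapping the next. Itgb8 and Itga2 overlapped at 1.92 to 2.54 TPM, Itgb4 was at 1.44 to 1.83 TPM and Itgal at 1.09 to 1.43 TPM.

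**Figure D1:**
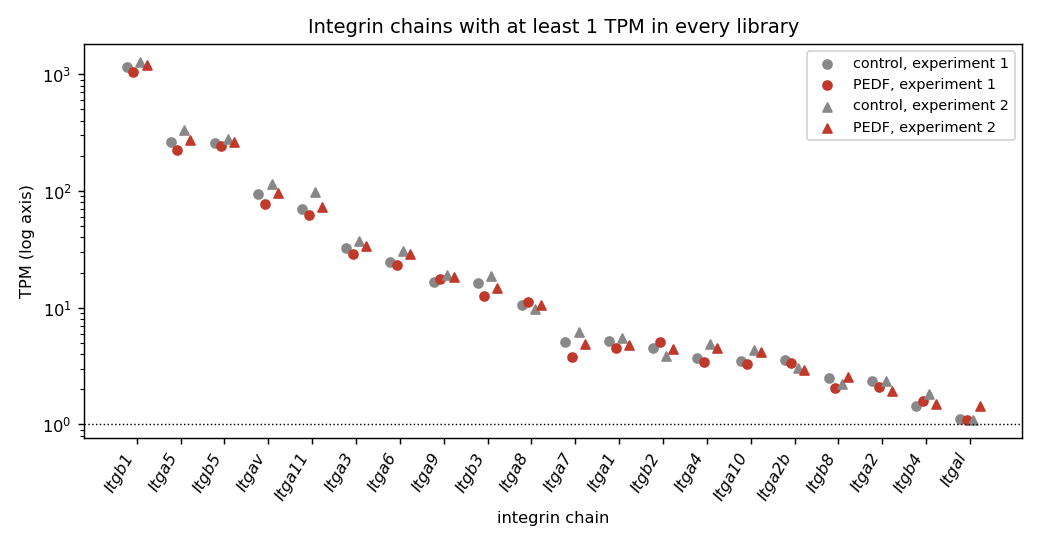
TPM (log axis) of the 20 detected integrin chains in each library, with control in grey and PEDF in red, experiment 1 as circles and experiment 2 as triangles, and the dotted line at 1 TPM. Itgb1 stands above all other chains in every library, Itga5 and Itgb5 overlap, and the chains from Itga7 down stay at or below 6.24 TPM.

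Of the summed TPM of all beta chains, Itgb1 took 79.7% to 80.9% in the 4 libraries, Itgb5 17.5% to 18.5% and Itgb3 0.965% to 1.19%. Among alpha chains, Itga5 took 47.9% to 49.6%, Itgav 16.5% to 17.6% and Itga11 13.0% to 14.6%. The alpha chains together came to 536 TPM in control 1, 669 in control 2, 467 in PEDF 1 and 561 in PEDF 2, and the beta chains to 1443, 1582, 1304 and 1497 TPM in the same order. Alpha transcripts therefore amounted to 0.358 to 0.423 of beta transcripts. Of 24 known alpha and beta pairs, both chains were detected for 18, including 12 of 12 pairs with Itgb1 and 4 of 5 with Itgav. The exception for Itgav was the epithelial partner Itgb6, at 0.297 to 0.521 TPM. Of the 4 pairs with Itgb2, the leukocyte beta chain, only that with Itgal had both chains detected. RNA levels do not show which pairs form on the cell surface.

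The 7 chains that missed 1 TPM in at least 1 library were Itgam, Itgax, Itgae and Itgad, alpha chains of leukocytes, and Itgb6, Itgb7 and Itgb2l. Itgam reached 0.702 to 1.6 TPM and Itgb7 0.874 to 1.58 TPM. Itgb2l had 0 counts in every library, which allows up to 3 counts in each, and Itgad had 2 counts in all. The leukocyte chains stood beside markers of other cells: 11 of 14 macrophage and leukocyte markers reached 1 TPM in every library, with a summed level of 194 CPM in control 1, 195 in PEDF 1, 128 in control 2 and 161 in PEDF 2. CPM are counts scaled to library size, here with TMM factors, which align the bulk of the genes between libraries. Of 7 megakaryocyte and platelet markers, beside Itga2b, 2 reached 1 TPM in every library, Pf4 at 4.70 to 10.0 TPM and Ppbp at 4.64 to 5.37 TPM. Gp6, Gp9 and Gp1bb had 0 or 1 count in each. Of 9 skeletal muscle markers, beside Itga7, 6 did so, with Myog at 450 to 711 counts and a summed 357 to 465 CPM, and of 8 epithelial markers, beside Itgb4 and Itgb6, 6 did so, at 46.5 to 62.3 CPM. Of 7 endothelial markers, 2 did so, at 16.3 to 17.4 CPM, with Tie1 at 0. All 10 fibroblast markers did so, and their summed level was lower with PEDF in both experiments, at 38225 CPM in control 1 and 35391 in PEDF 1, and 44326 in control 2 and 38190.1 in PEDF 2. Most of that sum came from the collagen genes Col1a1 and Col1a2. Other markers of the list went the other way: Dcn had 43.9 and 50.2 TPM in experiment 1 and 33.3 and 45.5 TPM in experiment 2, control first, and Lum and Thy1 were also higher with PEDF in both experiments. The part of these cells in the levels of the chains was not tested, and in bulk RNA fewer cells of a type and less RNA per cell cannot be told apart.

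When the fit took the experiment as a block, 4 chains passed, all lower with PEDF, by 14.5% to 21.6%. They were the fibronectin and vitronectin receptor chains Itga5, Itgav and Itgb3 and the collagen receptor chain Itga11. None of them passed the test of all 4 libraries without the block. Their log2 fold changes were -0.35 to -0.23 both with and without the block, so that the falls did not depend on it. With trends of exon length and GC content also removed, they were -0.32 to -0.19. Itga7 had a log2 fold change of -0.36 with the block and did not pass. With and without the block 0 chains were called higher. The values of the 4 chains that passed with the block are given next, on the CPM scale.

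Itga5 (ENSMUSG00000000555, 15:103344286-103366763 on the minus strand in GRCm38) had 457 CPM in control 1 and 402 in PEDF 1, and 565 in control 2 and 469.6 in PEDF 2. The group means were 511 ± 76.3 for control and 436 ± 47.5 for PEDF (SD, n = 2). PEDF was the lower library in each experiment, while the groups overlapped, since PEDF 2 lay above control 1. Within experiment 1 the log2 ratio of PEDF to control was -0.18 (95% interval -0.23 to -0.13), and within experiment 2 it was -0.27 (-0.31 to -0.22). These intervals cover counting error only, as each experiment had 1 library a group.

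Itgav (ENSMUSG00000027087, 2:83724397-83806916 on the plus strand) had 360.1 CPM in control 1 and 301 in PEDF 1, and 423 in control 2 and 359 in PEDF 2. Both PEDF libraries lay below both control libraries, by a narrow margin between PEDF 2 and control 1. The log2 ratio was -0.26 (-0.32 to -0.20) in experiment 1 and -0.23 (-0.28 to -0.19) in experiment 2. A stretch of 5.90% of its exons is shared with Gm13684 on the opposite strand, which held 11 counts in all.

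Itga11 (ENSMUSG00000032243, 9:62677826-62783982 on the plus strand) had 127 CPM in control 1 and 117 in PEDF 1, and 174 in control 2 and 131 in PEDF 2. Control 2 stood apart from the other 3 libraries, and the groups overlapped. The log2 ratio was -0.12 (-0.21 to -0.03) in experiment 1 and -0.40 (-0.48 to -0.32) in experiment 2. These counting intervals do not overlap, and the difference between the experiments could not be tested with 1 library a group in each.

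Itgb3 (ENSMUSG00000020689, 11:104608000-104670476 on the plus strand) had 34.4 CPM in control 1 and 27.0 in PEDF 1, and 38.5 in control 2 and 30.1 in PEDF 2. Both PEDF libraries lay below both control libraries. The log2 ratio was -0.35 in each experiment, with intervals of -0.54 to -0.16 in experiment 1 and -0.52 to -0.19 in experiment 2.

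**Figure D2:**
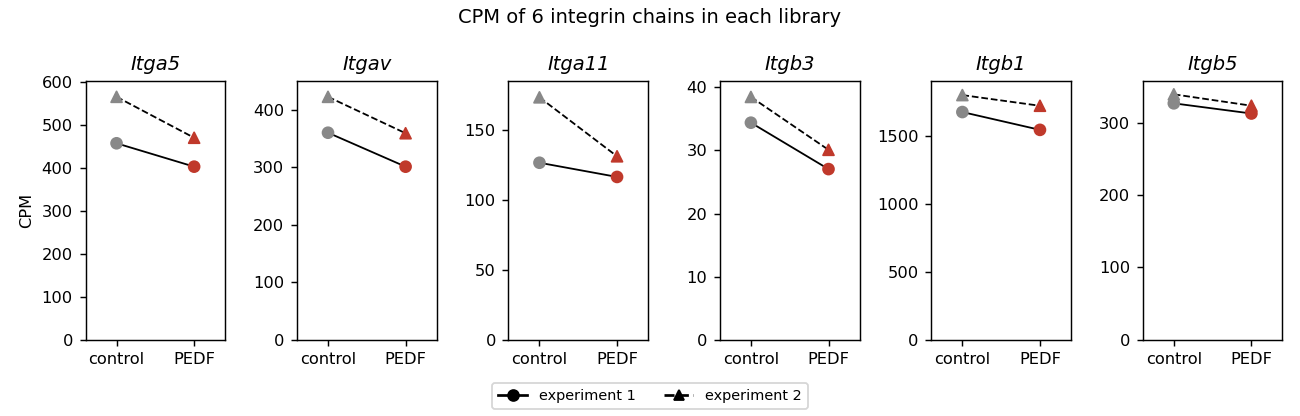
CPM of Itga5, Itgav, Itga11, Itgb3, Itgb1 and Itgb5 in each library, with a line from control to PEDF for each experiment and each axis starting at 0. Every PEDF point lies below its control, and experiment 2 (triangles) lies above experiment 1 (circles) for each chain.

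The promoter sequences of the 3 alpha chains among these are shown because their RNA was lower together. Each is the 250 bases before the RefSeq start in GRCm38.p6, 5′ to 3′ on the gene's strand, for Itga5 at chr15:103366792-103367041 on the minus strand, for Itgav at chr2:83724147-83724396 on the plus strand and for Itga11 at chr9:62677605-62677854 on the plus strand. Capitals mark a GC box, GGGCGG on either strand, the letters that the factor Sp1 is known to bind.
Itga5: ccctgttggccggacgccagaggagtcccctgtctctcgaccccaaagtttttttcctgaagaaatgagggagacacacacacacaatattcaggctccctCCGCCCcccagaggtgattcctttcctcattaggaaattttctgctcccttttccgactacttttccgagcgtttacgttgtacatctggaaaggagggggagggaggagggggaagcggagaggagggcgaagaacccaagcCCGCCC
Itgav: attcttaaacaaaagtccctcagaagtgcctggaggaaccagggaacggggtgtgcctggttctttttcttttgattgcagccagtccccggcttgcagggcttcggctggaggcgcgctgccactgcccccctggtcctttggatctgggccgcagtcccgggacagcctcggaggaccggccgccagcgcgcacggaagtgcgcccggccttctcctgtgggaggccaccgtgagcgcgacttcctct
Itga11: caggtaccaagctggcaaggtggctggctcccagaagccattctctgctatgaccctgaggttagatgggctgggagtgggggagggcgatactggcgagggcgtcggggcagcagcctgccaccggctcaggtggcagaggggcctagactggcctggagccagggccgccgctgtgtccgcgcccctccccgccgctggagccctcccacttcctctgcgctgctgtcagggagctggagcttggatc
The window of Itga5 holds 2 GC boxes, at bases 102 and 245, and those of Itgav and Itga11 hold none, although their GC content, 64.4% and 68.4%, is above the 55.6% of Itga5. A GC box is in 32.7% of 32851 such promoter windows and in those of 7 of the 22 Itga and Itgb genes that have one. None of the 3 windows holds an AP-1 site (TGANTCA, in 6.75% of windows), a CCAAT box (CCAAT, in 33.8%), a TATA box (TATAAA, in 12.4%) or the CArG box of serum response factor (in 1.47%), on either strand. No motif that was searched is shared by the 3 windows.

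In the comparison of all PEDF with all control libraries, fitted with edgeR's quasi-likelihood test without the experiment as a term, 0 of the 29 Itga and Itgb genes tested had an adjusted p under 0.05, beside 1 of 19384 genes, or 0.00516%. DESeq2 and limma called 0 as well. The smallest adjusted p in that edgeR fit was 0.626, for Itgb3. At an unadjusted p under 0.05, which 6.88% of all genes passed, Itgb3, Itgav, Itga7 and Itga5 were lower, and among the genes that are no chain Itgb1bp2 was higher. The median log2 fold change of the 20 detected chains was -0.08, against 0.00 for all genes and -0.03 for those with at least 1 TPM in every library and 4000 bp of exons. It was -0.19 without control 1, -0.17 without PEDF 2, -0.04 without PEDF 1 and -0.04 without control 2.

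When edgeR took the experiment as a block, 4 of the 29 passed, all lower with PEDF, beside 3.75% of all genes in either direction, 2.07% lower and 1.67% higher. Itgav fell by 0.25 on the log2 scale (SE 0.05, adjusted p = 1e-05). Itga11 fell by 0.27 (SE 0.05, adjusted p = 4.4e-05) and Itga5 by 0.23 (SE 0.04, adjusted p = 4.7e-05). Itgb3 fell by 0.35 (SE 0.09, adjusted p = 0.0041). As percentages these are falls of 15.7% for Itgav, 17.1% for Itga11, 14.5% for Itga5 and 21.6% for Itgb3. In DESeq2 with the same block, Itgav (adjusted p = 0.0058) and Itga5 (adjusted p = 0.0091) passed, Itga11 did not (adjusted p = 0.11), and no adjusted p was given for Itgb3. That fit gave an adjusted p to 1817 genes and called 119 of them, or 6.55%.

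Log2 fold changes moved with gene length in these libraries, and integrin chains are long. The detected chains had a median exon length of 6792 bp, against 3614 bp for all genes tested, and 18 of the 20 had at least 4000 bp. Among all genes with at least 1 TPM in every library, 4.82% were called with the block, 2.67% as lower, and of those that also had at least 4000 bp of exons 5.54% were called, 4.73% as lower. When the trends with exon length and GC content were removed from each library and the block was kept, 5 chains passed in edgeR, all lower, beside 2.06% of all genes in either direction, 1.16% lower and 0.903% higher. Itga11 fell by 0.24 (adjusted p = 0.00023), Itga5 by 0.19 (adjusted p = 0.00031), Itgav by 0.19 (adjusted p = 0.00095) and Itgb3 by 0.32 (adjusted p = 0.014). The fifth was Itgb1, which fell by 0.12 (adjusted p = 0.049), while its adjusted p with the block alone was 0.22 for a log2 fold change of -0.09. The median log2 fold change of the 20 detected chains was -0.08 with the block and -0.03 after the trends were removed. No measure of RNA quality was at hand, and its part in these trends was not tested.

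**Figure D3:**
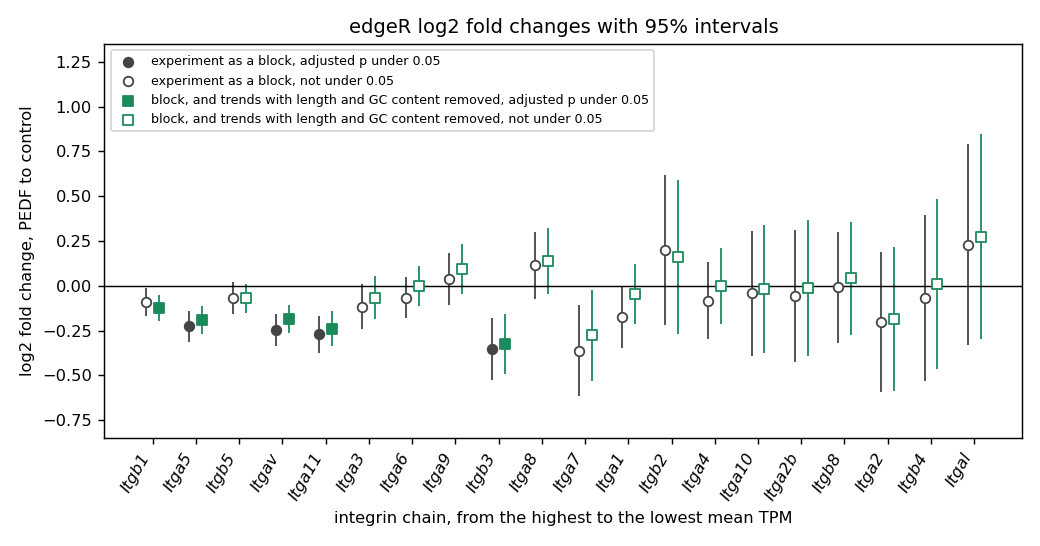
Log2 fold change of PEDF to control from edgeR for the 20 detected chains, with the experiment as a block (circles) and with the trends with length and GC content also removed (squares), filled where the adjusted p is under 0.05, with 95% intervals as bars. Itga5, Itgav, Itga11 and Itgb3 are filled under both fits, Itgb1 is filled in the second only, and the low chains at the right have wide intervals.

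The 2 most abundant beta chains showed small ratios with little counting error. Itgb1 (ENSMUSG00000025809, 8:128685654-128733200 on the plus strand) had 1675 CPM in control 1 and 1544 in PEDF 1, and 1799.9 in control 2 and 1721 in PEDF 2, or 24750, 24049, 32106 and 30610 counts in that order. The groups overlapped, with log2 ratios of -0.12 (-0.14 to -0.09) in experiment 1 and -0.06 (-0.09 to -0.04) in experiment 2. Itgb5 had 327 and 313 CPM in experiment 1 and 339 and 324 CPM in experiment 2, control first. Its groups did not overlap, and its log2 fold change with the block was -0.07 (95% interval -0.16 to 0.02, adjusted p = 0.55 in edgeR).

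Among the laminin receptor chains, Itga7, the main alpha chain of muscle, had 14.7 CPM in control 1 and 11.2 in PEDF 1, and 17.4 in control 2 and 13.8 in PEDF 2. Both PEDF libraries lay below both controls, and its log2 fold change with the block, -0.36 (SE 0.13), did not pass (adjusted p = 0.094 in edgeR, and 0.36 with the trends removed). The summed CPM of the skeletal muscle markers was higher with PEDF in both experiments, 357 in control 1 and 390.3 in PEDF 1, and 446 in control 2 and 465 in PEDF 2. These markers did not move as one. Myog had 450 and 521 counts in experiment 1 and 634 and 711 in experiment 2, control first. Ttn went the other way, with 285 and 252 counts and then 510 and 406. Myh3 was level in experiment 2, with 3701 counts in control and 3696 in PEDF. The part of muscle cells in Itga7 was not tested. Itga3 had 65.1 and 60.2 CPM in experiment 1 and 73.4 and 67.5 CPM in experiment 2, and Itga6 80.5 and 78.0 CPM and then 97.3 and 91.8 CPM, control first. Neither passed, with log2 fold changes of -0.12 (adjusted p = 0.40) and -0.07 (adjusted p = 0.69) in edgeR with the block.

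Of the collagen receptor chains other than Itga11, Itga1 had 34.0 and 30.8 CPM in experiment 1 and 35.5 and 30.8 CPM in experiment 2, control first, with both PEDF libraries below both controls. Its log2 fold change with the block was -0.18 (adjusted p = 0.32 in edgeR) and -0.05 after the trends were removed. Its 18599 bp of exons are the most of any detected chain, and the trend removed from it was -0.13. Itga2 had 5.96 and 5.46 CPM and then 5.77 and 4.78 CPM, also without overlap (log2 fold change -0.20, adjusted p = 0.73). Itga10 had 6.36 and 6.16 CPM and then 7.74 and 7.54 CPM (log2 fold change -0.04, adjusted p = 0.95), and 33.5% of its exon bases are shared with Gm42957 on the same strand, so that its counts are uncertain. Of the 4 collagen receptor chains, Itga11 was the one with a call. It also had the most counts, 9117 in all, against 2164 for Itga1, 462 for Itga10 and 361 for Itga2. Whether the chains differed in their change was not tested.

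Itga8, Itgb2 and Itgal had higher CPM with PEDF in both experiments, none with a call. Itga8 had 27.7 and 30.1 CPM in experiment 1 and 24.9 and 26.9 CPM in experiment 2, control first, with a log2 fold change of 0.12 (95% interval -0.07 to 0.30, adjusted p = 0.65 in edgeR with the block). Itgb2 had 4.87 and 5.65 CPM and then 4.09 and 4.67 CPM (log2 fold change 0.20, adjusted p = 0.76). Itgal, which pairs with it in leukocytes, had 2.57 and 2.63 CPM and then 2.47 and 3.26 CPM (log2 fold change 0.23, adjusted p = 0.81), with both PEDF libraries above both controls. The leukocyte markers did not move as one: their sum was nearly level in experiment 1 and higher with PEDF in experiment 2, where Lyz2 had 469 counts in control and 822 in PEDF, while Csf1r had fewer counts with PEDF in both experiments, 498 and 456 and then 540 and 509. Their part in Itgb2 and Itgal was not tested. Itga9 had opposite signs, with 45.5 and 49.2 CPM and then 50.3 and 49.3 CPM (log2 fold change 0.04, 95% interval -0.10 to 0.18).

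The remaining detected chains, Itga4, Itga2b, Itgb8 and Itgb4, had log2 fold changes of -0.08 to -0.01 with the block and adjusted p-values of 0.82 to 0.99 in edgeR. Itga4, a chain of leukocytes and of the embryo, had 18.5 and 17.5 CPM in experiment 1 and 23.4 and 22.1 CPM in experiment 2, control first. Itga2b, the platelet fibrinogen receptor chain, had 6.90 and 6.61 CPM and then 5.72 and 5.51 CPM. Itgb8, which activates TGF-beta with Itgav, had 9.75 and 8.22 CPM and then 8.47 and 9.78 CPM, in opposite directions. Itgb4, the hemidesmosome chain that pairs with Itga6, had 3.59 and 4.05 CPM and then 4.43 and 3.66 CPM, also in opposite directions.

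Across the 20 detected chains, 14 had lower CPM with PEDF in both experiments, 3 higher in both and 3 opposite signs. Of all genes tested, 28.7% were lower in both experiments and 30.1% higher in both. Of those with at least 1 TPM in every library and at least 4000 bp of exons, 40.8% were lower in both. For 6 detected chains (Itgb5, Itgav, Itgb3, Itga7, Itga1 and Itga2) both PEDF libraries lay below both controls, as for 18.1% of all genes, and for 1, Itgal, both lay above, as for 19.1%. The chains share their libraries and are not independent replicates of the treatment.

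**Figure D4:**
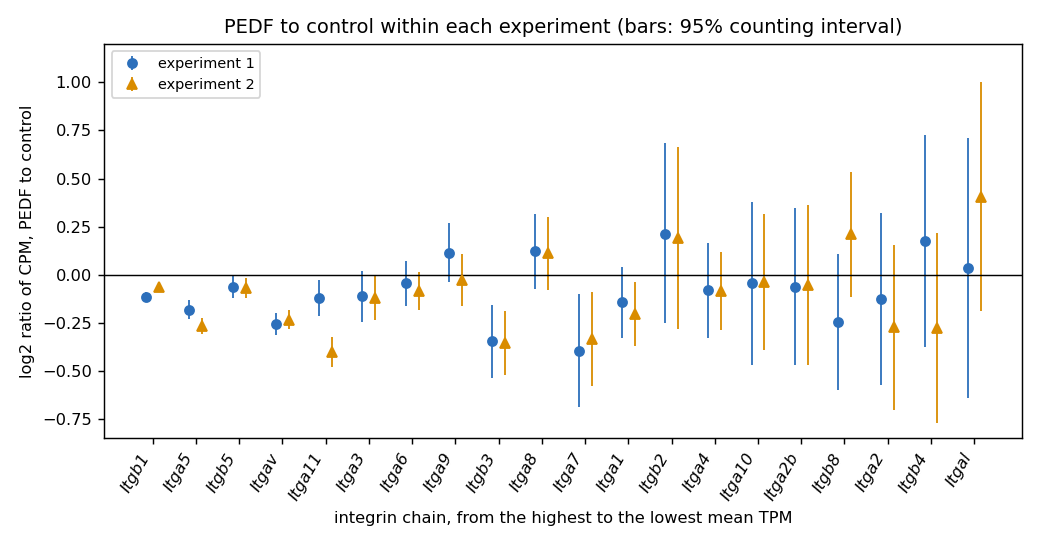
Log2 ratio of CPM, PEDF to control, for the 20 detected chains within experiment 1 (blue circles) and experiment 2 (orange triangles), with 95% counting intervals as bars. Itga5, Itgav, Itga11, Itgb3, Itgb1, Itgb5 and Itga7 lie below 0 with their intervals in both experiments, the 2 values of Itga11 lie apart, and Itga9, Itgb8 and Itgb4 change sign.

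The chains below 1 TPM gave little to compare. Itgam had 42 counts in control 1 and 20 in PEDF 1, and 35 in control 2 and 38 in PEDF 2. Its log2 ratio was -1.15 (-1.99 to -0.35) in experiment 1 and 0.12 (-0.58 to 0.83) in experiment 2, and 68.7% of its exon bases are shared with Gm49368 on the same strand. Itgb6 had 15 and 21 counts in experiment 1 and 13 and 19 in experiment 2, control first, and on the CPM scale both PEDF libraries lay above both controls. Its log2 fold change with the block was 0.47 (95% interval -0.54 to 1.49, adjusted p = 0.77 in edgeR). Itgb7 had 17 and 21 counts and then 27 and 15 (log2 fold change -0.31, 95% interval -1.22 to 0.59). Itgax had 5 counts in each library of experiment 1 and 4 in each of experiment 2, and Itgae had 0 and 6 counts and then 6 and 2 (log2 fold change of Itgae 0.49, 95% interval -1.83 to 2.81). For these 4 chains a difference was not detectable at this depth.

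Of the 4 genes that are no integrin chain, none passed in any edgeR fit of all 4 libraries. Itgb1bp2, which encodes melusin of striated muscle, had 4.60 and 6.81 CPM in experiment 1 and 5.33 and 6.64 CPM in experiment 2, control first, with both PEDF libraries above both controls (log2 fold change 0.43, SE 0.19, adjusted p = 0.24 with the block). Itgbl1 had 160 and 166 counts in experiment 1 and 108 and 173 counts in experiment 2, control first, for log2 ratios of -0.02 (-0.34 to 0.30) and 0.68 (0.33 to 1.04), with control 2 below the other 3 libraries. Itgb1bp1, the inhibitor of Itgb1 activation known as ICAP1, had 27.5 and 32.2 CPM and then 26.2 and 24.7 CPM. It shares exon bases with Asap2 and Cpsf3 on the opposite strand, and Itgb3bp, at 12.6 to 14.1 CPM, shares them with Pgm1. Among the chains, Itga4 shares 8.04% of its exon bases with Cerkl (323 counts in all, against 1358 for Itga4) and Itga8 5.05% with E030013I19Rik (143 counts, against 1802), both on the opposite strand. The strand setting of the counting is not given in the sources used here, so the counts of these genes are uncertain.

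The chains were also compared between the experiments, which had different embryos. In the comparison of experiment 2 with experiment 1, with the treatment as a term in edgeR, 5 chains were called, all higher in experiment 2, beside 4.49% of all genes in either direction, 2.3% higher and 2.19% lower. Itga11 was higher by 0.31 (SE 0.05, adjusted p = 7.1e-07), Itga5 by 0.26 (SE 0.04, adjusted p = 8e-07) and Itgav by 0.24 (SE 0.05, adjusted p = 2e-05). Itga6 was higher by 0.25 (SE 0.06, adjusted p = 0.0016) and Itgb1 by 0.13 (SE 0.04, adjusted p = 0.040). Itgb3, with a log2 fold change of 0.15, did not pass (adjusted p = 0.42). DESeq2 called 2 chains here, Itga5 and Itgav, beside 7.79% of the genes it gave an adjusted p, and gave none for Itga11 and Itga6. With no term for the treatment, edgeR called 0 chains, beside 0.0567% of all genes. This comparison and that of PEDF with control use the same 4 libraries. Control 2 had the highest CPM of Itga5, Itgav, Itga11, Itga6 and Itgb1 of the 4, and PEDF 1 the lowest. Without the control library of experiment 1 and without the block, Itga5 had a log2 fold change of -0.37 (adjusted p = 0.030 in edgeR) and Itga11 of -0.49 (adjusted p = 0.0026), in a fit that called 1.09% of all genes. Without the control library of experiment 2 they were -0.07 and -0.03, each with an adjusted p of 0.999.

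Partners of the integrins were described from 4 lists, of which 0 genes passed without the block in DESeq2, or in edgeR with the minimum of 10 counts in total. The list with the most calls in the blocked fit was the extracellular ligands, 16 lower and 0 higher of 31 tested, beside 2.07% of all genes lower and 4.73% of those with at least 1 TPM and 4000 bp of exons, with a median log2 fold change of -0.17 against 0.00 for all genes. After the trends were removed 13 were called, again all lower, beside 1.16% of all genes, with a median of -0.13. DESeq2 with the block called 10 of the list, beside 6.55% of the genes it gave an adjusted p. Fn1, which encodes fibronectin, the main ligand of Itga5 with Itgb1, had 8546 and 6913 CPM in experiment 1 and 10257 and 7605 CPM in experiment 2, control first. Both PEDF libraries lay below both controls, and it fell by 0.37 (SE 0.04, adjusted p = 2.9e-21 in edgeR with the block). Lama5, a laminin chain read by Itga3 and Itga6, had 149 and 112 CPM and then 178 and 123 CPM and fell by 0.48 (adjusted p = 9e-17). Fbn1, the microfibril protein fibrillin with an RGD motif, fell by 0.40 (adjusted p = 2e-19), Tnc, the Itga9 ligand tenascin, by 0.38 (adjusted p = 3.4e-18) and Thbs1, or thrombospondin, by 0.30 (adjusted p = 6.8e-13). These 5 also passed with the trends removed. The groups of Tnc and Thbs1 overlapped, with PEDF 2 above control 1. Lama2, a laminin chain read by Itga7, fell by 0.29 with the block (adjusted p = 0.033) and did not pass with the trends removed (adjusted p = 0.51).

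Of 26 activators and linkers tested, 6 were lower and 1 higher with the block, beside 3.75% of all genes called, and 3 lower after the trends were removed, beside 2.06%. Flna, a filamin that links beta tails to actin, fell by 0.22 (adjusted p = 2.3e-06) and Actn1, an alpha-actinin, by 0.16 (adjusted p = 0.0066), and both also passed in edgeR with the trends removed, with falls of 0.14 each. The groups of both genes overlapped. Tln1, the talin that switches integrins on, had 777 and 682 CPM in experiment 1 and 942 and 789 CPM in experiment 2, control first, and fell by 0.22 with the block (adjusted p = 2.3e-05), with an adjusted p of 0.068 after the trends were removed. Tln2 fell by 0.23 and Vcl, or vinculin, by 0.15 with the block only. Rap1a, a small GTPase that recruits talin, rose by 0.25 with the block only (adjusted p = 0.025, and 0.46 with the trends removed). Fermt2, the kindlin of fibroblasts, and Ilk, which binds it, each had a log2 fold change of -0.03 (adjusted p = 0.88 and 0.83).

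Among 24 focal adhesion signalling genes, 2 were lower with the block, beside 3.75% of all genes called, Lpp by 0.33 (adjusted p = 1.1e-08) and Zyx by 0.16 (adjusted p = 0.016), both LIM-domain proteins, and Lpp alone passed in edgeR with the trends removed, with a fall of 0.18 (adjusted p = 0.0084), beside 2.06% of all genes. Ptk2, which encodes FAK, had a log2 fold change of -0.03 (adjusted p = 0.88) and Pxn, or paxillin, of 0.04 (adjusted p = 0.82). Of 13 membrane partners, 1 was lower and 1 higher under both fits, beside 3.75% of all genes called with the block and 2.06% with the trends removed. Lrp1, an endocytic receptor that takes up matrix proteins such as fibronectin, fell by 0.39 (adjusted p = 1.1e-18 in edgeR with the block) and by 0.21 with the trends removed, and Cd63, a tetraspanin, rose by 0.21 (adjusted p = 2e-04).

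**Figure D5:**
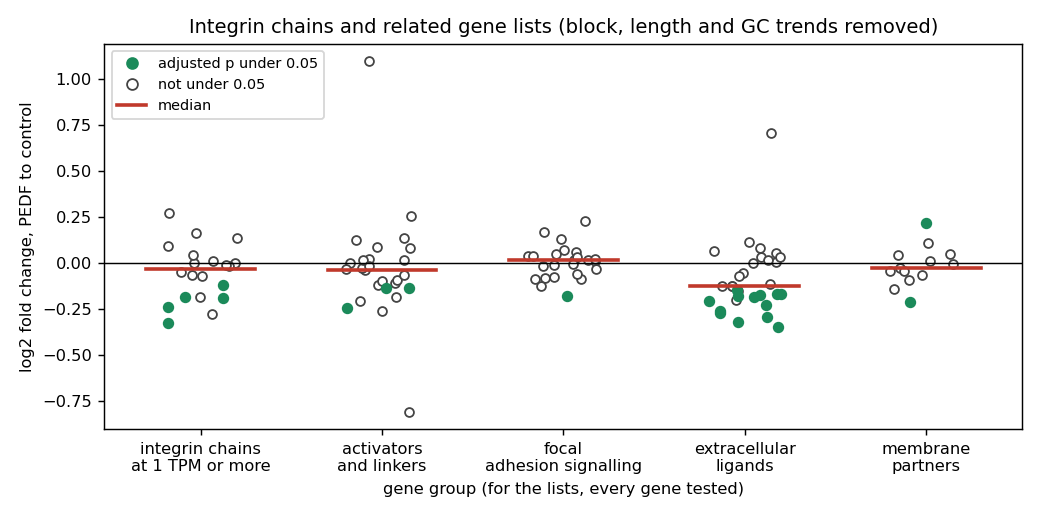
Log2 fold change of PEDF to control from edgeR, with the block and the trends with length and GC content removed, for the 20 detected integrin chains and for every tested gene of the 4 lists, filled where the adjusted p is under 0.05, with the median as a red line. The 5 called chains and the 13 called ligands lie below 0, and the focal adhesion signalling genes centre on 0.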

How the data were processed

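Polyadenylated RNA of wild-type MEFs was sequenced from directional libraries. Per the labels and the submitters' processing notes, the authors used Trimmomatic 0.38, HISAT2 2.1.0, SAMtools 1.9, featureCounts 1.6.3 and FastQC 0.11.7 with build mm10. The authors deposited read counts per gene without normalization, and TPM that sum to 1000000 in each library. The counting annotation and strand setting are not given in the sources used here.

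Counts were fitted in R 4.3.3 with edgeR 4.0.16 (TMM factors, quasi-likelihood test, robust dispersion) on 19384 genes, each with 10 counts or more over all libraries, with Benjamini-Hochberg adjustment over all of them and a threshold of 0.05. The fit had no covariate. Because the labels give each experiment its own embryos, a fit with the experiment as a block was added. As a check of this pairing, the difference between the experiments was taken in control and in PEDF and correlated over the 10703 genes whose mean log2 CPM exceeded 3 (r = 0.423; genes are no independent replicates). Trends were natural splines with 5 degrees of freedom of exon length and GC content from GENCODE M21, used as offsets. The length implied by TPM was within 1% of that exon length for 93.1% of 11833 genes. Coordinates of 30 of the 31 genes equalled GENCODE M21 in GRCm38. Ratios within an experiment have exact conditional binomial 95% intervals. SEs are the size of the log2 fold change divided by the square root of F. The fits were also run on simulated counts with changes far larger than those called here, so these runs do not show how reliable the calls are.

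DESeq2 1.42.0, RLE factors, other filters, limma 3.58.1 on log2(TPM + 1) and log2(TPM + 0.1), and each library left out were alternatives. A fit of the experiments without the treatment term for each library left out was added after seeing the data. Values are printed for all 31 genes, for at most 6 called genes of each list by size, and for Tln1, Fermt2, Ilk, Ptk2, Pxn, Vcl and Fn1, except where a gene is not reported here. The members and lists were chosen with earlier results of these data known. Whether libraries of a group are more than technical repeats beyond their embryos is not stated, so p-values refer to these samples only. The fits estimated the spread of a gene with information shared over all genes, as few libraries were at hand. A small p-value with the block therefore does not show that the 2 experiments agreed for that gene. Itga11, with log2 ratios of -0.12 in experiment 1 and -0.40 in experiment 2, is an example.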

Additional observations from a re-analysis of the deposited data

How the results depend on the processing

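With 2 libraries a group, all calls of PEDF against control in the integrin genes rest on how the spread is estimated. Their number was 0 without a block and under DESeq2, RLE factors, both other filters and limma, 4 with the replicate block, 2 with DESeq2 and the block, 5 with the block and the length and GC correction, and 0 to 2 with 1 library left out. Itga5, Itgav, Itga11, Itgb3, Itgb1 and Itga7 were lower with PEDF under all 13 alternatives, though without control replicate 2 or PEDF replicate 1 their values were closer to 0 than without the other libraries. Itgb5, Itga1, Itga3 and Itga2 were also lower under all 13. Like Itga7, they had no call under any of them. With 1 library left out, Itgav ranged from -0.38 to -0.13, Itgb1 from -0.17 to -0.02, Itga7 from -0.52 to -0.22 and Itgb3 from -0.43 to -0.27. Outside the chains the ranges were -0.60 to -0.14 for Tnc, -0.50 to -0.11 for Thbs1, -0.57 to -0.21 for Fbn1, -0.53 to -0.07 for Lama2, -0.50 to -0.24 for Fn1, -0.60 to -0.35 for Lama5, -0.35 to -0.08 for Flna, -0.26 to -0.06 for Actn1, -0.36 to -0.08 for Tln1, -0.46 to -0.19 for Lpp and -0.55 to -0.22 for Lrp1. With 1 library left out, the log2 fold change took both signs for Itga6 (-0.20 to 0.0759, and 0.0411 without PEDF replicate 1), Itga9 (-0.0298 to 0.11), Itgbl1 (-0.0917 to 0.75), Fermt2 (-0.0592 to 0.00508), Ptk2 (-0.092 to 0.0341) and Pxn (-0.0148 to 0.10). The sign turned without control replicate 2 for Itga6, Itgbl1, Fermt2, Ptk2 and Pxn and without control replicate 1 for Itga9. Ptk2 was also at 0.0608 with the block and the correction. The cause was not tested.

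Calls in the lists, given for activators and linkers, focal adhesion signalling, extracellular ligands and membrane partners in turn, were 7, 2, 16 and 2 with the replicate block, 4, 1, 10 and 2 with DESeq2 and the block, 3, 1, 13 and 2 with the block and the correction, 1, 1, 4 and 1 with no filter on low counts, and 0 to 2, 0 to 1, 0 to 9 and 0 to 1 with 1 library left out, the highest of each without control replicate 1. Calls between the experiments were 5, against 2 in DESeq2, 0 with no term for the treatment, and 0 to 4 with 1 library left out and no such term. Detected chains numbered 10 at 5 TPM, 22 at 0.5 TPM, 21 at 1 CPM and 20 to 21 with 1 library left out. The tested chains with fewer than 100 counts in all had edgeR 95% intervals that included 0.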
